A study of Rattus norvegicus with 6 samples.

Results

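Desmosomes are the spot junctions that rivet keratinocytes to one another, and the genes described here encode their cadherins and plaque proteins: the desmogleins Dsg1, Dsg2 and Dsg3, the desmocollins Dsc1, Dsc2 and Dsc3, the plakophilins Pkp1 and Pkp3, desmoplakin (Dsp) and plakoglobin (Jup). They were picked by gene symbol from a deposited table of 18825 genes, and all 10 were found and passed the filter on low counts, as did 14427 genes in all. Messenger RNA came from full-thickness dorsal skin wounds of male Sprague-Dawley rats made diabetic by a diet rich in fat and sucrose and then streptozotocin, which kills pancreatic beta cells. One group of 3 samples came from wounds treated with DST-MNs, microneedles that carry spheroids of dental pulp stem cells regulated with spermidine and TGF-β3, and the other group of 3, the control, from untreated wounds. The control wounds received no blank needles, so effects of the needles, the cells and the added factors cannot be told apart, and the labels give neither the age of the rats nor the day of collection.

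In a desmosome the desmogleins and desmocollins reach across the gap between neighbouring cells and bind each other. Inside the cell their tails hold plakoglobin and plakophilins, which hold desmoplakin, and desmoplakin anchors the keratin filaments. In stratified skin epithelium Dsg3 and Dsc3 are typical of the lower layers, Dsg1 and Dsc1 of the upper layers, and Dsg2 and Dsc2 are the forms shared with simple epithelia and heart. Wounded epidermis loosens these junctions while keratinocytes crawl over the wound bed and rebuilds them as a layered sheet forms.

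Library totals ran from 12545206 to 13818548 estimated counts. No library repeated another: between any pair the chi-square of the counts per degree of freedom was 32.2 to 97.4, far above the 1 of counting noise. Fibroblast markers, 5 genes, summed to 17300 to 18400 TPM (the deposited level per gene length, summing to 1000000 in a library) in DST-MNs libraries and 18200 to 22700 TPM in controls. Of these, Pdgfra stood at 56.39, 68.38 and 57.25 TPM in DST-MNs replicates 1, 2 and 3, against 92.37, 94.47 and 92.9 TPM in control replicates 1, 2 and 3. The other fibroblast markers overlapped between groups. Keratinocyte markers were far more uneven, as given below, and DST-MNs replicate 1 and control replicate 2 lay at the high and the low end. Over all genes, 112 of 14427 changed (0.776%), 95 of them higher and 17 lower in DST-MNs wounds, by edgeR's quasi-likelihood test with a Benjamini-Hochberg adjusted p below 0.05. That count was 23, 34 and 14 when DST-MNs replicates 1, 2 and 3 were left out in turn, and 402, 34 and 53 on leaving out the 3 controls in the same order.

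All 10 desmosome genes had a higher mean in DST-MNs wounds than in controls, by log2 changes of 0.92 (Dsc2) to 5.44 (Dsc3), where 50.5% of all genes had a change above 0, yet none passed the test over all genes. Their adjusted p ran from 0.11 (Dsg3) to 0.338 (Dsc2). At an unadjusted p below 0.05 there were 9 of the 10, all higher, where 9.80% of all genes tested were higher at that level. The library-scaled counts (CPM, counts scaled to a common library total) of the groups did not overlap for 9 of the 10, all higher, against 12.9% of all genes, and Dsc2 was the exception. The Wald test of DESeq2 called 8 of them higher, with 4.36% of all genes called higher. It left Dsc2 uncalled (adjusted p = 0.32) and gave no adjusted p for Dsc3. The median log2 change of the 10 was 3.51, or 2.31 without DST-MNs replicate 1, against 0.004 over all genes. Since fewer keratinocytes in a wound and less RNA per keratinocyte give the same reading in bulk tissue, those cannot be told apart. The labels call the 3 samples of a group biological replicates without saying that each came from its own rat, so p-values measure the spread between these samples, which may be partly technical.

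**Figure D1:**
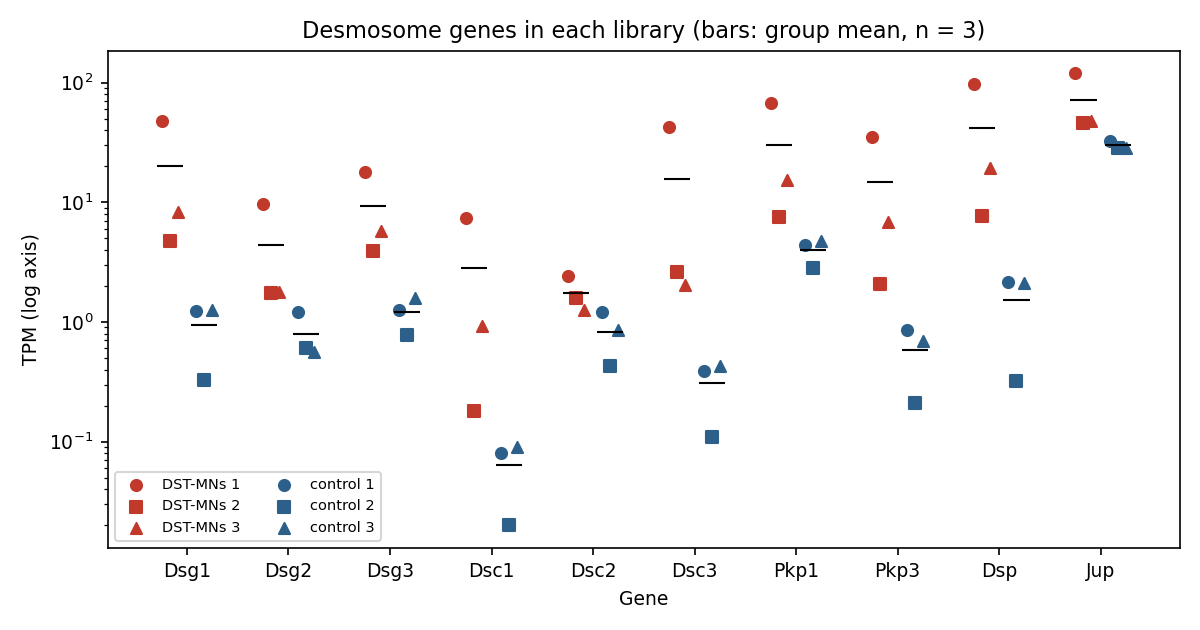
TPM (log axis) of the 10 desmosome genes in each library, DST-MNs in red on the left and control in blue on the right of each gene, with a symbol for each replicate and a bar at the group mean (n = 3). DST-MNs replicate 1 is the highest library for every gene, and Jup is the most abundant gene in both groups.

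Dsg1, the desmoglein of the upper epidermis and the target of staphylococcal exfoliative toxins in people and mice, stood at 48.01, 4.76 and 8.28 TPM in DST-MNs replicates 1, 2 and 3, against 1.23, 0.33 and 1.25 TPM in control replicates 1, 2 and 3. The lowest treated library was above the highest control, and DST-MNs replicate 1 was far above the other treated libraries. The log2 change in counts was 4.24 (SE 0.99, 95% interval 1.87 to 6.61, adjusted p = 0.131, edgeR), and 2.70 without DST-MNs replicate 1 (adjusted p = 0.18). Dsg3, the desmoglein of basal keratinocytes and the antigen of pemphigus vulgaris in people, stood at 18.08, 3.93 and 5.75 TPM in DST-MNs wounds, against 1.25, 0.78 and 1.58 TPM in controls. These groups did not overlap either, and the treated libraries lay closer to one another than for Dsg1. Its log2 change was 2.77 (SE 0.59, 95% interval 1.36 to 4.18), with the smallest adjusted p of the 10 by edgeR with all libraries, and 1.92 without DST-MNs replicate 1 (adjusted p = 0.135).

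Dsg2, the desmoglein of simple epithelia and heart muscle, had 523, 92 and 95 counts in DST-MNs replicates 1, 2 and 3 and 71, 34 and 30 counts in control replicates 1, 2 and 3. At 1.74 and 1.77 TPM, DST-MNs replicates 2 and 3 were close above control replicate 1, at 1.22 TPM, and most of the group difference lay in DST-MNs replicate 1, at 9.72 TPM. The log2 change was 2.26 (SE 0.75, adjusted p = 0.216, edgeR) and 1.01 without that library (adjusted p = 0.301). Among the desmogleins Dsg2 was therefore the one with the smallest log2 change.

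Dsc3, the desmocollin of the basal layers, had the largest log2 change of the 10 with all libraries, but without DST-MNs replicate 1 Dsp, Dsc1 and Pkp3 were above it. It stood at 42.7, 2.59 and 2.04 TPM in DST-MNs wounds, against 0.39, 0.11 and 0.43 TPM in controls, or 1110, 66 and 53 counts against 11, 3 and 11. The treated libraries all lay above the controls, but the first of them held most of the signal. The log2 change of 5.44 (SE 1.42, 95% interval 2.06 to 8.83, adjusted p = 0.156, edgeR) became 2.78 without it (adjusted p = 0.153). Dsc1, the desmocollin of the outermost living layers, was the rarest member in controls, with 5, 1 and 5 counts, and had 413, 10 and 53 counts in DST-MNs replicates 1, 2 and 3. DST-MNs replicate 2 was thus only 5 counts above the highest control. Its log2 change was 5.24 (SE 1.44, adjusted p = 0.163) and 3.06 without DST-MNs replicate 1 (adjusted p = 0.228).

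Dsc2, the desmocollin shared with simple epithelia, had the smallest log2 change of the 10 with all libraries, and Jup was below it without DST-MNs replicate 1 or control replicate 1. Its values were 2.40, 1.59 and 1.26 TPM in DST-MNs wounds, against 1.21, 0.43 and 0.85 TPM in controls. On the TPM scale the groups were just apart, and in library-scaled counts they overlapped, at 4.16 CPM in DST-MNs replicate 3 and 4.17 CPM in control replicate 1. The log2 change of 0.92 had a 95% interval of -0.09 to 1.94.

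Pkp1, the plakophilin of the upper epidermis whose loss causes skin fragility in people, stood at 67.03, 7.5 and 15.26 TPM in DST-MNs wounds, against 4.40, 2.82 and 4.73 TPM in controls. Its treated libraries were all above the controls, DST-MNs replicate 2 by the least. The log2 change was 2.72 (SE 0.77, adjusted p = 0.17, edgeR) and 1.41 without DST-MNs replicate 1 (adjusted p = 0.209). Pkp3, which is found in all living layers of the epidermis, stood at 35.32, 2.09 and 6.82 TPM in DST-MNs wounds, against 0.86, 0.21 and 0.69 TPM in controls. This plakophilin was rarer than Pkp1 in every library, and its log2 change was larger, at 4.42 (SE 1.11, adjusted p = 0.146). Leaving out DST-MNs replicate 1 gave 2.81.

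Dsp, the obligate linker between the plaque and keratin filaments, stood at 97.28, 7.75 and 19.29 TPM in DST-MNs wounds, against 2.14, 0.32 and 2.12 TPM in controls. By counts it was 7871, 619 and 1505 against 178, 27 and 170, so the groups were well apart and control replicate 2 was far below the other controls. Its log2 change was 4.60 (SE 1.13, 95% interval 1.91 to 7.29, adjusted p = 0.141, edgeR), and 3.07 without DST-MNs replicate 1 (adjusted p = 0.199).

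Jup, the plakoglobin that serves both desmosomes and adherens junctions and is also made by endothelium and other tissues, was the most abundant member in every library. It stood at 119.6, 46.21 and 48.23 TPM in DST-MNs wounds, against 32.67, 28.32 and 28.69 TPM in controls. The controls lay close together, with a mean of 29.9 ± 2.41 TPM (SD, n = 3). A log2 change of 1.08 (SE 0.35, 95% interval 0.25 to 1.92, adjusted p = 0.209, edgeR) became 0.55 without DST-MNs replicate 1 (adjusted p = 0.2).

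**Figure D2:**
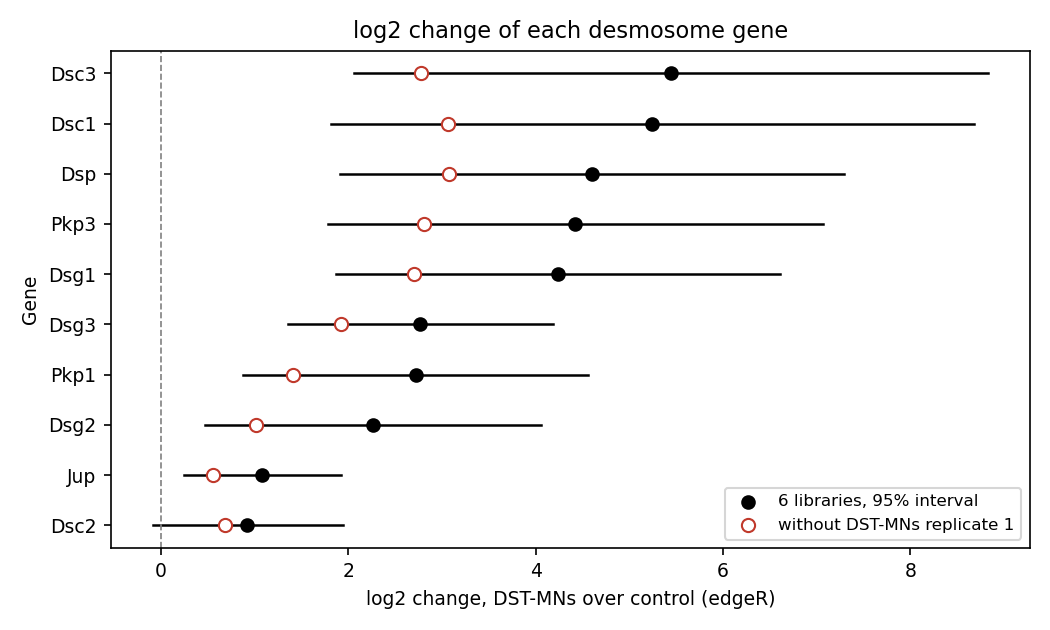
log2 change in counts of each desmosome gene, DST-MNs over control, by edgeR (filled points, with 95% intervals that include the spread between libraries), and the same without DST-MNs replicate 1 (open red points). Points lie above 0 for all 10 genes with and without that library, and the interval of Dsc2 reaches below 0, to -0.09.

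The order of levels differed between the groups. By mean TPM in DST-MNs wounds it ran from Jup (71.3) through Dsp (41.4), Pkp1 (29.9), Dsg1 (20.3), Dsc3 (15.8), Pkp3 (14.7), Dsg3 (9.25), Dsg2 (4.41) and Dsc1 (2.81) to Dsc2 (1.75). The ranges of every pair of neighbours overlapped across libraries, yet within each treated library Jup, Dsp, Pkp1 and Dsg1 ranked 1, 2, 3 and 4. Dsc1 was above Dsc2 in DST-MNs replicate 1 alone (7.33 against 2.40 TPM). It was below in replicates 2 (0.18 against 1.59 TPM) and 3 (0.93 against 1.26 TPM). In controls it ran from Jup (29.9) through Pkp1 (3.98), Dsp (1.53), Dsg3 (1.2), Dsg1 (0.937), Dsc2 (0.83), Dsg2 (0.793), Pkp3 (0.587) and Dsc3 (0.31) to Dsc1 (0.0633). There, Jup did not overlap Pkp1, Pkp1 did not overlap Dsp, and Dsc3 did not overlap Dsc1, while the ranges of the other neighbours overlapped. Within every control Jup, Pkp1, Dsc3 and Dsc1 ranked 1, 2, 9 and 10. Jup made up 26.7% to 59.0% of the summed TPM of the 10 genes in DST-MNs wounds, against 70.0% to 83.4% in controls. The sum itself was 447, 78.3 and 110 TPM in DST-MNs replicates 1, 2 and 3 and 45.5, 33.9 and 41.0 TPM in control replicates 1, 2 and 3. Without Jup it was 328, 32.1 and 61.4 TPM in DST-MNs wounds, against 12.8, 5.62 and 12.3 TPM in controls.

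The make-up of the cadherins differed as well. Dsg1 took 63.3%, 45.6% and 52.4% of the desmoglein TPM in DST-MNs replicates 1, 2 and 3, against 33.2%, 19.3% and 36.9% in control replicates 1, 2 and 3. So the upper-layer desmoglein was the leading one in all treated libraries. Dsg3 led in control replicates 2 and 3, at 45.6% and 46.6%. In control replicate 1 the 3 desmogleins were nearly level, at 33.2% (Dsg1), 33.0% (Dsg2) and 33.8% (Dsg3). Among desmocollins, Dsc2 took 4.58%, 36.5% and 29.8% in DST-MNs wounds, against 72.0%, 76.8% and 62.0% in controls. Dsc3 led the desmocollins in every treated library, at 48.2% to 81.4%, and held 19.6% to 31.4% in controls. Dsc1 shares overlapped, at 4.13% to 22.0% in DST-MNs wounds and 3.57% to 6.57% in controls, and the TPM of Dsc1 in control replicate 2, listed as 0.02, rests on 1 count.

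**Figure D3:**
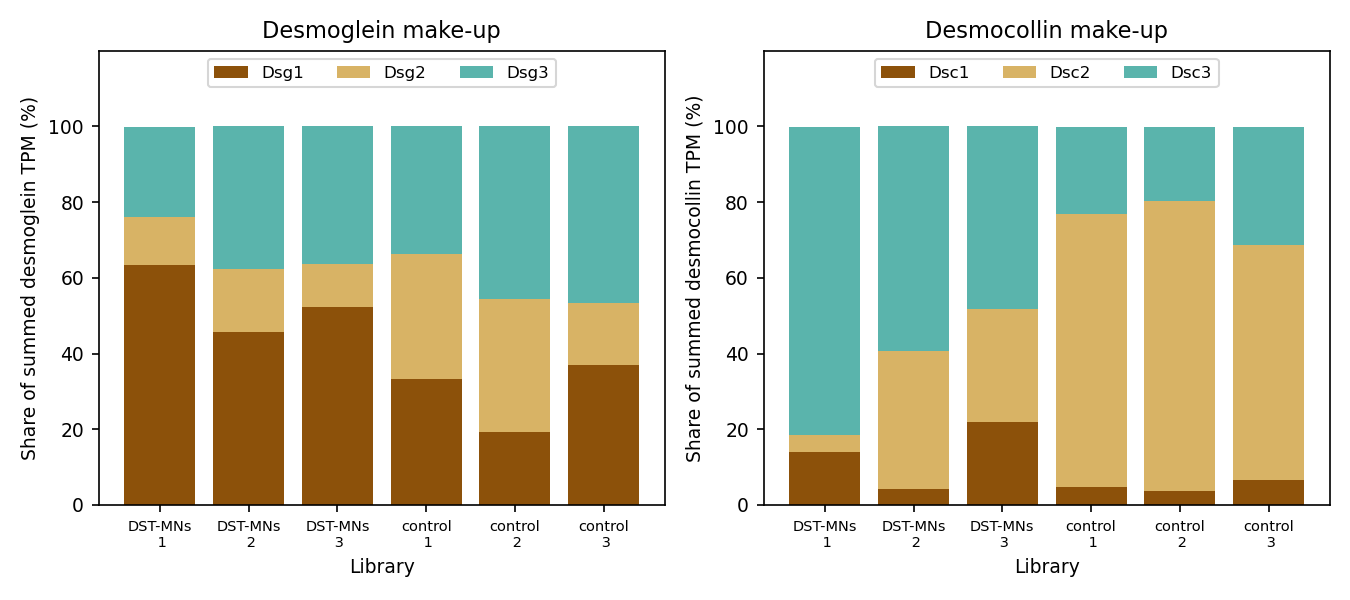
Share (%) of each gene in the summed TPM of the 3 desmogleins (left) and of the 3 desmocollins (right), 1 bar per library with the DST-MNs libraries to the left of the controls. Dsg1 holds 45.6% to 63.3% of desmoglein TPM in DST-MNs libraries and 19.3% to 36.9% in controls, and Dsc2 holds 4.58% to 36.5% of desmocollin TPM in DST-MNs libraries and 62.0% to 76.8% in controls.

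Ratios of TPM within a library compare members without regard to library scaling. Ratios of 9 gene pairs and the sum of the 10 were each tested with a two-sided exact permutation test, in which 3 libraries against 3 cannot go below p = 0.1. The log2 ratio of Dsg1 to Dsg3 averaged 0.74 ± 0.60 in DST-MNs wounds and -0.53 ± 0.63 in controls (SD, n = 3 each), a difference of 1.27 with no overlap (exact p = 0.1, adjusted p = 0.167 over 10 tests). Groups were likewise apart, at the same p, for Dsg1 to Dsg2 (difference 1.89), Dsc1 to Dsc2 (3.20), Dsp to Jup (3.32) and, in the other direction, Pkp1 to Pkp3 (-1.65). With 1 TPM added to each gene, Dsc1 to Dsc2 overlapped at a difference of 0.74 (exact permutation p = 0.5), and Pkp1 to Pkp3 stayed apart at -0.51. The summed TPM differed by 1.98 on the log2 scale, also at p = 0.1 in the exact test. For Dsc1 to Dsc3 the groups overlapped, with a difference of -0.17 (exact p = 0.7) that was 0.50 without DST-MNs replicate 2, and with 1 TPM added to each gene they were apart, at -1.26 (exact p = 0.1).

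Scaled to the basal keratin Krt5, the treated and control libraries overlapped. The ratio of Dsg1 to Krt5 TPM was 0.0325, 0.0619 and 0.0233 in DST-MNs replicates 1, 2 and 3 and 0.0188, 0.108 and 0.0246 in control replicates 1, 2 and 3. Control replicate 2, with 58 Krt5 counts, had the highest ratio. The log2 difference was -0.03 (exact permutation p = 0.9), or 0.04 and 0.28 without DST-MNs replicates 1 and 3 and 0.74 without control replicate 2. The differences for Dsg3 to Krt5 and Dsp to Krt5 were -1.30 and 0.44 (both p = 0.5 in the exact permutation test), and adding 1 TPM to each gene gave -0.97 for Dsg1, -1.86 for Dsg3 and -0.38 for Dsp. With spreads this wide, such p-values do not show that the ratios were alike. Krt5 itself stood at 1477.3, 76.94 and 355.24 TPM in DST-MNs wounds, against 65.3, 3.06 and 50.74 TPM in controls.

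The 7 keratinocyte markers found in the table were high and low in the same libraries as the desmosome genes. Krt5, Krt14, Krt15, Tp63, Cdh1, Epcam and Esrp1 summed to 3840, 303 and 1230 TPM in DST-MNs replicates 1, 2 and 3 and 178, 11.3 and 159 TPM in control replicates 1, 2 and 3. Each was higher in every treated library than in every control by library-scaled counts, against 12.9% of all genes. None passed edgeR's test over all genes, and none was at 0 in a whole group. Before adjustment all 7 had p below 0.05, and DESeq2 called 2, against 9.80% and 4.36% of all genes higher. By TPM, Tp63 overlapped, at 4.14 TPM in DST-MNs replicate 2 and 4.56 TPM in control replicate 1, and Krt15 and Epcam were at 0 in control replicate 2. Hair follicle markers, 8 genes, were high in DST-MNs replicate 1 (1120 TPM), which was also the highest library for every desmosome gene. They summed to 1.70 and 3.83 TPM in the other treated libraries and 11.7, 0.41 and 0.86 TPM in controls, and their inner root sheath keratin Krt25 was at 0 in DST-MNs replicates 2 and 3 and control replicates 2 and 3. How much hair follicle tissue adds to the desmosome values of that library was not tested, and the values without it stand beside each gene above. Sebaceous markers, 6 genes, summed to 458 to 576 TPM in DST-MNs wounds and 146 to 217 TPM in controls. Of them 2 were called higher over all genes, against 0.658% of all genes. Most of the control sum was Mgst1, at 195.95, 176.15 and 137.49 TPM, whose groups overlapped (log2 change 0.39). Awat1 stood at 38.93, 40.79 and 24.29 TPM in DST-MNs replicates 1, 2 and 3, against 0.26, 0 and 0.48 TPM in control replicates 1, 2 and 3. Endothelial markers, which bear on Jup, summed to 244 to 348 TPM in DST-MNs wounds and 309 to 391 TPM in controls. Skeletal muscle markers, 5 genes, summed to 3980, 4440 and 3150 TPM in DST-MNs replicates 1, 2 and 3 and 4580, 21.9 and 214 TPM in control replicates 1, 2 and 3, with Ckm and Myh4 listed at 0 TPM in control replicate 2. So control replicates 2 and 3 held little muscle RNA beside the other 4 libraries, and the part of this in the desmosome values was not tested. Macrophage markers, 5 genes, summed to 437 to 621 TPM in DST-MNs wounds and 447 to 535 TPM in controls. That sum joins unlike moves: Mrc1 and Cd14 were lower without overlap by library-scaled counts (log2 change -0.83 and -0.46). The other macrophage markers overlapped, with Cd68 at 0.36.

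Of 8 other desmosome genes, 7 were tested and none passed over all genes, with a median log2 change of 1.05. Before adjustment 4 had p below 0.05, all higher, and DESeq2 called 3, against 9.80% and 4.36% of all genes. Perp, a membrane protein of desmosomes that p63 switches on, stood at 367.7, 72.57 and 130.47 TPM in DST-MNs wounds, against 9.36, 0.30 and 12.05 TPM in controls (log2 change 4.55, SE 1.13, adjusted p = 0.142, edgeR). Evpl, the plaque protein envoplakin, had a log2 change of 4.12 (SE 0.96), and its partner periplakin, Ppl, one of 1.22 (SE 0.43) with groups that overlapped. Cdsn, corneodesmosin of the late desmosomes, was at 1.05 (SE 0.26). The plakophilin relatives Pkp2 and Pkp4 were at 0.66 (95% interval up to 1.77) and 0.01 (SE 0.12), and Kazn was at 0.09. Dsg4, the desmoglein of the hair shaft, was below the count filter, with 92, 0 and 0 counts in DST-MNs replicates 1, 2 and 3 and 1, 0 and 1 counts in control replicates 1, 2 and 3. Its signal was thus in the library with the hair follicle markers.

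Neighbouring junction genes differed in how they stood. To set beside the counts below, 9.80% of all genes were higher at an unadjusted p below 0.05 by edgeR, and DESeq2 called 4.36% higher. Of 9 adherens junction genes none passed over all genes, 2 were higher at an unadjusted p below 0.05 and with DESeq2, and the median log2 change was 0.35. Cdh1, E-cadherin, stood at 34.26, 5.57 and 9.83 TPM in DST-MNs wounds, against 1.30, 1.04 and 1.29 TPM in controls (log2 change 3.59, SE 0.67, adjusted p = 0.0831, edgeR), and Nectin4 was at 3.42 (SE 0.86). The catenins Ctnna1, Ctnnb1 and Ctnnd1, which many cell types make and which were picked out after their values were seen, were at 0.05, -0.13 and -0.20. Of 6 hemidesmosome genes, which fix keratinocytes to the basement membrane, none passed, 2 were higher at an unadjusted p below 0.05 and DESeq2 called 1. Col17a1 was at 2.51 (SE 0.83) and the integrin Itgb4 at 0.77 (SE 0.24), and the median was 0.32. Keratins that desmoplakin can anchor were tested for 8 of 10 listed genes, with a median of 4 and none past the threshold, though before adjustment 7 had p below 0.05, and DESeq2 called 3. The upper-layer keratin Krt1 was at 5.82 (SE 1.47, adjusted p = 0.148). Of the 9 tested transcription factors of keratinocytes none passed, the median was 3.01, 8 were higher and 1 (Klf4) lower at an unadjusted p below 0.05, and DESeq2 called 6. Grhl1, a grainyhead factor known to act on Dsg1 in mice, was at 3.81 (SE 0.89, adjusted p = 0.131), Grhl2 at 4.09 and Cebpa at 0.81.

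The genes whose profile over the 6 libraries was most like the median of the desmosome genes were chosen by the smallest root mean square distance between centred log2 CPM values. Of the 10 nearest, 8 were, in order, Gata3 (0.23), Grhl2 (0.27), Capns2 (0.27), Ovol1 (0.28), Evpl (0.31), Cdh1 (0.34), Trim29 (0.36) and Rab25 (0.37). Several are known from epithelium: Grhl2, Ovol1 and Gata3 are transcription factors of it, and Rab25 is its small GTPase. The members themselves lay at 0.41 (Dsg3), 0.45 (Pkp1) and 0.46 (Dsg1) for the nearest and 1.18 (Jup) and 1.26 (Dsc2) for the farthest. The median member stood 3.26, 0.21 and 0.90 above its mean in DST-MNs replicates 1, 2 and 3, and -1.09, -2.20 and -1.31 from it in control replicates 1, 2 and 3.

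**Figure D4:**
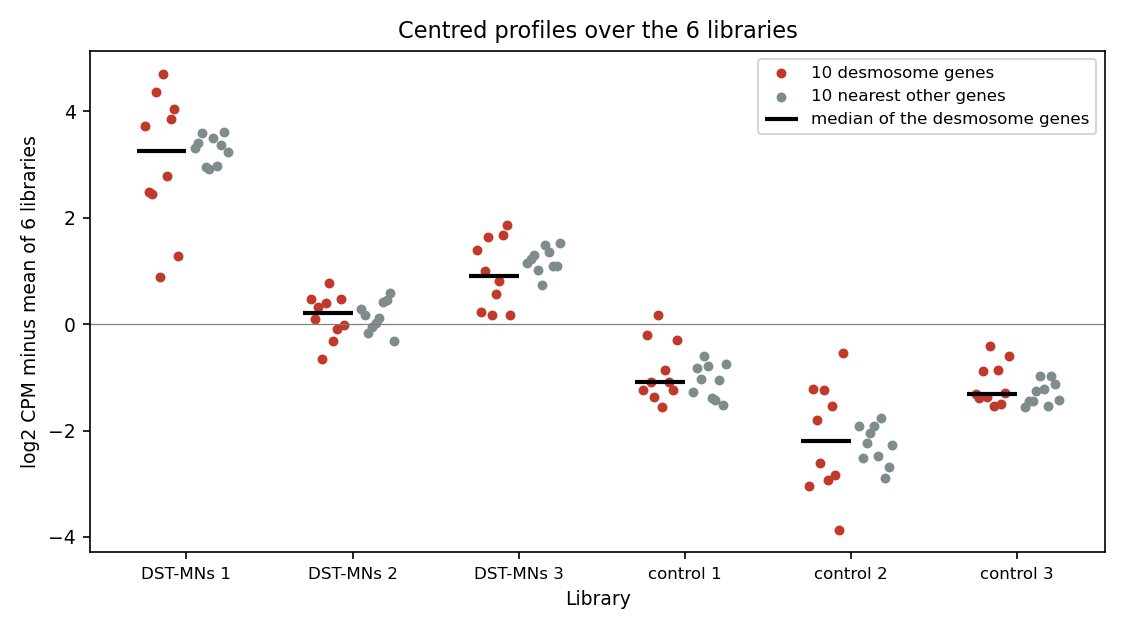
log2 CPM minus the mean of the 6 libraries, for the 10 desmosome genes (red, with a black bar at their median) and the 10 other genes with the nearest profile (grey), with DST-MNs libraries to the left of the controls. The median of the desmosome genes is 3.26 in DST-MNs replicate 1, 0.21 and 0.90 in the other treated libraries, and -2.20 in control replicate 2.

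The 6 cadherin members and Dsg4 form an unbroken row of 7 desmosomal cadherin genes on rat chromosome 18, in the order Dsc3, Dsc2, Dsc1, Dsg1, Dsg4, Dsg3, Dsg2 in RefSeq's annotation of GRCr8, with no other protein-coding gene between them. Log2 changes ranged widely along this row. Dsc2, at 0.92, lies between Dsc3, at 5.44, and Dsc1, at 5.24, and Dsg4, with counts in DST-MNs replicate 1 and almost none elsewhere, lies between Dsg1 and Dsg3. Promoter windows of 300 bases, from 250 before to 50 after the start of the gene, were matched for 9 of the 10 members in RefSeq's GRCr8 sequences. They are shown for 5 cadherins to set the forms of stratified epithelium beside Dsg2, a form of simple epithelia. Capitals mark the box GGGCGG, which factors of the Sp family bind, on either strand. In the window of Dsg1 they mark the motif AGATAA, which is read by Gata3 and its relatives.
Dsg1 (GRCr8 chr18:11947848-11948147, plus strand): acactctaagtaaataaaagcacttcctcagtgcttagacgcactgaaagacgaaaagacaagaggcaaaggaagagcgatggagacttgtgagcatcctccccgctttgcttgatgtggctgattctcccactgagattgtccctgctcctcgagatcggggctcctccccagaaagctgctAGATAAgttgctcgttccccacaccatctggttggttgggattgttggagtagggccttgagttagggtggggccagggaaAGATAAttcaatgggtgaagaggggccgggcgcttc
Dsg3 (GRCr8 chr18:12074071-12074370, plus strand): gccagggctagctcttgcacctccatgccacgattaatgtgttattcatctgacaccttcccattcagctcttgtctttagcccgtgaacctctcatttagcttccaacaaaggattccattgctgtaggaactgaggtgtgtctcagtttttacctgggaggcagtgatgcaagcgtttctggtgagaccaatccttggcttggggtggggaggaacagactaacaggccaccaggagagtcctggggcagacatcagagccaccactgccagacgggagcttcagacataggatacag
Dsc1 (GRCr8 chr18:11803473-11803772, minus strand): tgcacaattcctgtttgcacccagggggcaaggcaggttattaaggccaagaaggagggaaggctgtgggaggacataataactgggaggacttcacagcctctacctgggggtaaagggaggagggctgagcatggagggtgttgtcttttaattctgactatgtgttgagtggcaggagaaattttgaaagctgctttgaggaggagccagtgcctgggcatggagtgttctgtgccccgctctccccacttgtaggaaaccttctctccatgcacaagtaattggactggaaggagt
Dsc3 (GRCr8 chr18:11688822-11689121, minus strand): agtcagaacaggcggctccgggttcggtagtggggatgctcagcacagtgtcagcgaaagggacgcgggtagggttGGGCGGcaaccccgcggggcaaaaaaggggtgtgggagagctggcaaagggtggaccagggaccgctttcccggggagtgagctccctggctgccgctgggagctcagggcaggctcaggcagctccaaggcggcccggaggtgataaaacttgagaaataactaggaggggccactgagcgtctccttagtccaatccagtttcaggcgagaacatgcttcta
Dsg2 (GRCr8 chr18:12121037-12121336, plus strand): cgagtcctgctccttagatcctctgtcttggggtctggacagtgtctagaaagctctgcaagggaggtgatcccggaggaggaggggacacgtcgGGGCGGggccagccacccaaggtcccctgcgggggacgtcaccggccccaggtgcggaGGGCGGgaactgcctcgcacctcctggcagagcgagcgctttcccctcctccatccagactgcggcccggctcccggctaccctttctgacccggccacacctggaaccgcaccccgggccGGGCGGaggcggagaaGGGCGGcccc

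The box GGGCGG was in the windows of Dsg2, Dsc2, Dsc3, Pkp1, Dsp and Jup and in none of Dsg1, Dsg3 and Dsc1, and it was in 33.1% of all 33469 promoter windows. Dsg2 held 4 copies and Dsc3 held 1. Windows of Dsg1, Dsg3 and Dsc1 were 52.3%, 52.0% and 52.0% G and C, close to the median of 51.7% over all windows, and those of the other 6 were at 60.7% (Dsc2) to 75.0% (Dsp). AGATAA, searched because Gata3 was among the nearest profiles, was in the Dsg1 window at 2 places and in no other member, against 11.6% of all windows. Other spellings of a site for Gata3 were not searched, so the other windows may hold such sites. CAGGTG, an E-box, was in the windows of Dsg2, Dsc2, Dsp and Jup, against 18.8% of all. The grainyhead motif AACNGGTT (2.10% of all windows), the AP-1 motif TGAGTCA (4.63%) and TATAAA (14.2%) were in none of the 9. Both strands were searched, 0 hits of different motifs overlapped in the 9 windows, and the motifs were chosen with the windows at hand. A match is only a match of letters: those 3 genes without that box had log2 changes of 2.77 to 5.24, and the 6 with it ran from 0.92 to 5.44.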

How the data were processed

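Wound RNA was isolated with TRIzol and its messenger RNA sequenced from both ends on a DNBSEQ-T7, per the labels' protocols. Groups came from the sample titles and columns were matched by library name. The authors deposited 1 table with 4 values per gene and library. Estimated counts were deposited by the authors without scaling, per the file headers, and 90.5% to 91.4% of them were whole. All counts of the 10 desmosome genes were whole. The authors' TPM columns, named in the file headers, each sum to 1000000 within rounding and hold 2 decimals. The FPKM values and the normalised counts, a signal the authors made with 1 factor per library, were deposited too and stayed untested. The build was mRatBN7.2, per the submitters' processing notes. Aligner, counter and use of strand were not given in the sources used here, so overlapping and antisense genes cannot be told apart.

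Counts were rounded and tested with edgeR 4.0.16 in R 4.3.3. Its filterByExpr, with a minimum count of 10, left 14427 genes, to which TMM scaling and the quasi-likelihood test (glmQLFit, glmQLFTest) were applied. P-values were adjusted by Benjamini-Hochberg over these genes and called below 0.05. Standard errors are the log2 change over the square root of F. A prior count of 2 entered log2 CPM. The test was tried on simulated counts with known changes. Alternatives were DESeq2 1.42.0, limma 3.58.1, other scalings and filters, the replicate number as a block and each library left out. TPM ratios were tested by exact permutation over the 20 splits of 6 libraries. The members, the gene lists and the rule for similar profiles were chosen with earlier results of these data known. That rule took the 10 genes outside the members with an average log2 CPM of 1 or more and the nearest centred profile. Of 103 list entries, 100 were matched. Lists of junction genes, keratins, transcription factors, and proteases and kinases are described by counts and their median, and by up to 4 genes with the smallest p. Lists of cell type markers are described by summed TPM, and some also by counts, a median or named genes. Pkp2, Pkp4, Kazn, Dsg4, the catenins, Klf4, Mgst1, Klk5 and Klk14 were named after their values were seen. Some genes that these rules pick are not reported here. Depth of 12545206 to 13818548 counts per library leaves Dsc1, Dsc3 and Pkp3 with fewer than 10 counts in at least 1 library. Reference names came from RefSeq's GRCr8, another assembly than that of the files, and its coordinates are given for the promoter windows alone. Ratios, promoter searches and plots used Python 3.11.15 (numpy 2.4.6, pandas 2.3.3, matplotlib 3.10.9).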

Additional observations from a re-analysis of the deposited data

How the results depend on the processing

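None of the 137 member values under the alternatives lay below 0, and 9 of them passed the threshold. The Wald test of DESeq2 called 8 members (0 with edgeR): Dsg1 (4.25), Dsg2 (2.27), Dsg3 (2.78), Dsc1 (5.30), Pkp1 (2.72), Pkp3 (4.44), Dsp (4.61) and Jup (1.08 on the log2 scale), with adjusted p from 2.14e-05 (Dsg3) to 0.0375 (Pkp1). The count of changed genes over the table was 1018 with DESeq2 and 38 with at least 10 counts in every library, a filter that leaves 7 members, and 14 to 402 with 1 library left out, against 112. No member was called by limma-voom (adjusted p 0.199 to 0.395), limma on log2(TPM + 1), other scalings or with 1 library left out. Total counts and log2(TPM + 1) moved the median log2 change of the genes tested by 0.118 and 0.119. With the replicate number as a block 1 member, Dsp (4.29), and 123 genes were called. In that fit all 10 members had an unadjusted p below 0.05, as did 2188 of the 14427 genes tested, in either direction. Pkp3 and Dsg1 came close to the adjusted threshold (edgeR adjusted p = 0.0503 and 0.0547). The SE of Dsg1 was 0.49 there, against 0.99 without the block. Over all genes, same-numbered libraries deviated together only weakly, with correlations of -0.02, 0.10 and 0.11 for numbers 1, 2 and 3. Unlike numbers gave -0.22 to 0.10. Whether same-numbered samples were paired cannot be told from these values or the labels. Pairing the TPM ratios by number cannot change their differences (1.27 for Dsg1 to Dsg3) and gave exact sign-flip p = 0.25 there, the smallest that 3 pairs allow. Of 81 ratio values 5 reversed: Dsc1 to Dsc3 ran from -0.86 to 0.50 and Dsg1 to Krt5 from -0.52 to 0.74 with 1 library left out (0.04, 0.28 and 0.74 being the reversals), and Dsp to Krt5 was -0.38 on TPM + 1. The cause was not tested. With 3 libraries a group, wide spread between treated wounds and as few as 1 count for Dsc1, differences in the rarer members are imprecise.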

Other observations

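Proteases that cut desmosomal proteins and the inhibitor that restrains them were measured in the same libraries. Of 8 listed genes of proteases and kinases that act on desmosomes, 6 were tested and none passed over all genes by edgeR, at a median log2 change of 0.31. Of these, 2 were higher at an unadjusted p below 0.05 and with DESeq2, against 9.80% and 4.36% of all genes. Klk7, a kallikrein of the outer epidermis that degrades corneodesmosin, had 189, 40 and 57 counts in DST-MNs replicates 1, 2 and 3 and 3, 0 and 12 counts in control replicates 1, 2 and 3 (log2 change 4.10, SE 1.06, adjusted p = 0.155, edgeR). Spink5, its inhibitor, had 510, 232 and 217 counts in DST-MNs wounds, against 3, 0 and 21 counts in controls. The shedding protease Adam10 was at -0.38 (SE 0.18) and the receptor kinase Egfr at 0.40 (SE 0.33). Klk5 and Klk14 were below the count filter, with at most 20 counts in a library.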
